A study of Mus musculus with 6 samples.

Results

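Integrins are transmembrane heterodimers of an alpha and a beta subunit through which a cell binds extracellular matrix, complement fragments and counter-receptors on other cells. The alpha subunit largely sets which ligand is bound, and the cytoplasmic tail of the beta subunit recruits talin, kindlin and the adaptors that couple the receptor to actin. In microglia, the resident macrophages of the brain, integrins are best known for adhesion, for movement of the processes, for phagocytosis through complement receptor 3 and for the activation of latent transforming growth factor beta (TGF-β). The 10 integrin genes described here were chosen by name, and each had a row among the 41079 genes of the deposited tables. They comprise the alpha subunits Itgam, Itgax, Itga1, Itga4, Itga5, Itga6 and Itgav and the beta subunits Itgb1, Itgb2 and Itgb5.

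The study profiled mouse neonatal microglia by bulk RNA sequencing, with 3 libraries from control cultures and 3 from optimized cultures. The cells came from brains of C57Bl/6N pups aged 1 to 3 days, grew as mixed cultures fed with conditioned medium of L-929 cells, a fibroblast line that secretes macrophage growth factor, and were shaken off the layer below. Control microglia were then kept in serum-free DMEM/F12, and the sources used here do not state how their wells were coated. Optimized microglia received the same medium with human TGF-β, IL-34 and CX3CL1 at 100 ng/mL each. Cholesterol, an insulin, transferrin and selenium mix and a collagen IV coating of the wells, which the labels do not name, were further parts of the optimized condition in the published methods. Both conditions shared gentamicin and a brief adhesion step in medium with serum. No library carried a single supplement or the coating alone, so the effects of the cytokines, the lipid and the collagen IV surface, itself an integrin ligand, cannot be told apart. The culture flasks held cells pooled from several pups, the study calls the libraries biological replicates, and the labels name no animals.

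The libraries held 20628148 to 27261839 counts assigned to genes. Of the 10 genes, 9 had enough counts for the test and Itga1 did not. Counts of the 10 genes together made up 0.350 to 0.379% of a control library and 0.610 to 0.659% of an optimized library. Much of this difference came from Itgb5 alone, with 6228 to 7776 counts in control and 42652 to 61210 in optimized libraries. Itgb1, Itga4 and Itgax were lower in optimized libraries, so the sum does not describe every gene. Microglial identity was checked with 7 marker genes (Aif1, Csf1r, Cx3cr1, P2ry12, Tmem119, Trem2 and Tyrobp), which were present in every library, with a summed level of 4041 to 4303 CPM (counts scaled to a common library depth, here by the trimmed mean of M values, TMM) in control and 4569 to 6043 CPM in optimized cultures. Of these 7 markers, 4 rose and 2 fell, so the marker total itself moved with the condition. The libraries differed in a trend with gene length. Over the tested genes, the deviation of a library from its condition mean correlated with length at rho = 0.30 in control replicate 1 and 0.46 in optimized replicate 1, and at -0.34 in control replicate 3 and -0.46 in optimized replicate 2. With this trend removed from each library, a choice made after the data were seen, the 7 calls given next held. In bulk samples, fewer cells of a type and less RNA per cell cannot be told apart.

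Across the 9 tested integrin genes, 7 changed between the conditions at an adjusted p under 0.05 in edgeR's quasi-likelihood test, against 29.8% of the 14618 genes tested. The 9 were chosen with earlier results of these data known and ranked 78 to 3047 of all tested genes by control CPM. The share called among genes as abundant was not computed. Higher in optimized cultures were 5 of the 9 (Itgb5, Itgav, Itga5, Itgam and Itga6), a direction found for 14.7% of all tested genes. Lower were Itga4 and Itgax, a direction found for 15.2% of all tested genes. The median log2 fold change of the 9 genes was 0.62, beside 0.01 over all tested genes, and the median size of the change regardless of sign was 0.82 beside 0.26. The CPM values of the conditions did not overlap for 8 of the 9, which was so for 43.9% of all tested genes. Scaling to library size alone shifted the median of all genes by -0.13 on the log2 scale and turned the split over all genes from 2142 higher and 2218 lower into 1513 higher and 3168 lower. Under that scaling the 5 higher integrin genes remained higher and the 2 lower ones lower, and Itgb1 passed the threshold as lower too.

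**Figure D1:**
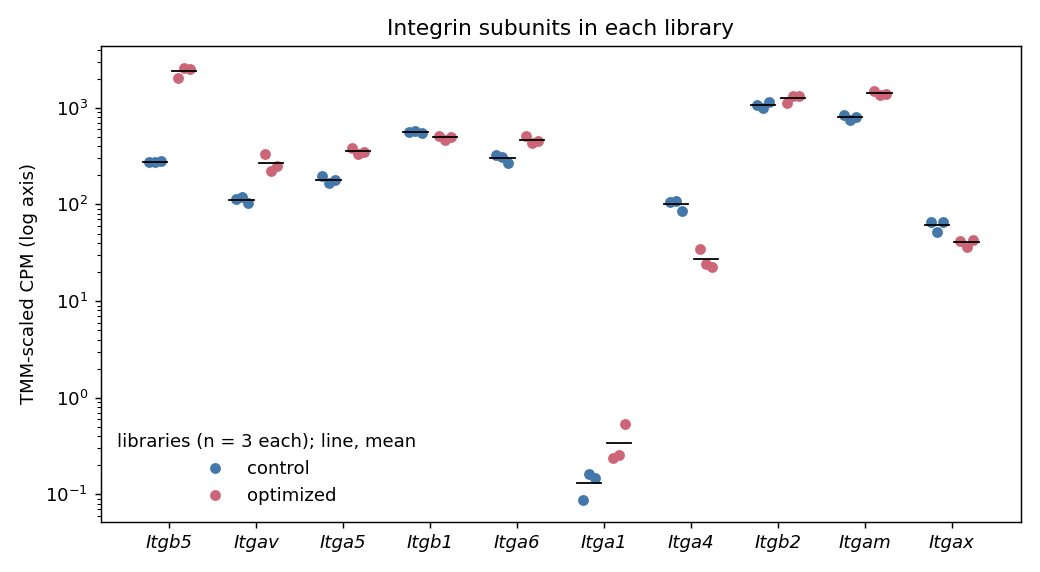
Level of each of the 10 integrin genes in every library, in TMM-scaled CPM on a log axis, with control libraries in blue, optimized libraries in red and a line at the mean of the 3 libraries. Itgb5 rose from a mean of 278 to 2383 CPM and Itga4 fell from 100 to 27.1 CPM, whereas the points of Itgb2 overlap and those of Itga1 lie under 1 CPM.

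The receptors for matrix proteins carrying the RGD motif, such as fibronectin and vitronectin, held the 3 largest increases of the 10 genes. Itgb5 encodes the beta subunit that pairs only with αv and binds vitronectin. Its level was 272, 276 and 285 CPM in the control libraries and 2020, 2606 and 2524 CPM in the optimized libraries. Each optimized library thus lay far above all control libraries, and optimized replicate 1 was the lowest of its group. The mean rose from 278 ± 6.33 to 2383 ± 318 CPM (SD, n = 3 each), an 8.58-fold increase with a log2 fold change of 3.10 (SE 0.12, 95% interval 2.82 to 3.38, adjusted p = 1.53e-07). This was the 88th highest log2 fold change among the 14618 genes tested. Measured per length as fragments per kilobase of gene, scaled for depth (FPKM), Itgb5 moved from rank 674 to rank 68 of those genes.

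Because Itgb5 showed the largest change of the 10 genes, the genomic sequence just before its first exon is shown, read from the RefSeq promoter table (GRCm38.p6) and placed by exact match at chr16:33649785-33649987 of GRCm39, plus strand. The gene itself spans 33649988 to 33771137 of chromosome 16. Capitals mark the GC box GGGCGG on either strand.
Itgb5: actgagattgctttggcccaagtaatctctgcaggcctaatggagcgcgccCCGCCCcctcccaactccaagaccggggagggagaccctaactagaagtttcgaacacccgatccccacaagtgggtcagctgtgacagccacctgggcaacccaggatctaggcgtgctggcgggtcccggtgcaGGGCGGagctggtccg
The 250-base window before the RefSeq start of Itgb5 held 3 GC boxes, of which 2 lie in the stretch printed. At least 1 was found in 32.7% of the 32851 windows of that length in the table. The window was 65.2% G or C, above the median of 52.4% and the upper quartile of 61.2% over all windows. It held no match to GAGGAA, the core bound by PU.1, no CAGAC, the SMAD-type motif, no TGANTCA, the AP-1 type, and no TATAAA on either strand, motifs found in 23.3%, 42.2%, 6.75% and 12.4% of windows. Such letters describe the sequence and do not show that a factor binds there.

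Itgav, the alpha subunit shared by the receptors for vitronectin and for latent TGF-β, was present at 114, 120 and 103 CPM in control and 331, 224 and 252 CPM in optimized libraries. The conditions did not overlap, and optimized replicate 1, lowest for Itgb5, was highest for Itgav. The mean rose 2.40-fold, from 112 ± 8.72 to 269 ± 55.3 CPM (log2 fold change 1.26, SE 0.14, 95% interval 0.95 to 1.58, adjusted p = 9.12e-05). Itga5 encodes the alpha subunit of the classical fibronectin receptor α5β1. Its libraries held 196, 165 and 178 CPM in control and 382, 335 and 352 CPM in optimized cultures. The mean rose 1.99-fold, from 179 ± 15.4 to 356 ± 24.1 CPM (log2 fold change 0.99, SE 0.10, 95% interval 0.78 to 1.20, adjusted p = 3.62e-05).

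Besides Itgb5 and Itgb1, αv pairs with the products of Itgb3, Itgb6 and Itgb8. Itgb3, the beta subunit of the vitronectin receptor αvβ3, rose from 14.4, 12.2 and 11.1 CPM to 32.8, 25.5 and 27.6 CPM (log2 fold change 1.19, SE 0.14, adjusted p = 1.07e-04). Itgb8, whose dimer with αv activates latent TGF-β, stood at 0.60 to 2.08 CPM over the 6 libraries and did not pass the test (log2 fold change -0.28, 95% interval -1.23 to 0.68). Itgb6, the epithelial partner of αv, had 0 counts in all 6 libraries. Itga8, another RGD-binding subunit, had 2 to 11 counts and was not tested.

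The beta2 integrins are restricted to leukocytes and include complement receptors 3 and 4. Their shared beta subunit Itgb2 (CD18) was measured at 1066, 1003 and 1156 CPM in control and 1122, 1324 and 1339 CPM in optimized libraries. These ranges overlapped, since optimized replicate 1 lay below control replicate 3. The means were 1075 ± 77.1 and 1262 ± 121 CPM, and the difference did not pass the test (log2 fold change 0.23, SE 0.11, 95% interval -0.01 to 0.47, adjusted p = 0.145). Without optimized replicate 1 the log2 fold change was 0.31 with an adjusted p of 0.0151, so whether Itgb2 passed depended on that library. With the trend in gene length removed it was 0.24 with an adjusted p of 0.0469. These fits called 5234 and 5204 genes in all, beside 4360 in the main test.

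Itgam encodes CD11b, the alpha chain of complement receptor 3 and a standard microglial surface marker. It rose from 840, 754 and 800 CPM to 1486, 1340 and 1403 CPM, and the lowest optimized value was above the highest control value. The mean increased 1.77-fold, from 798 ± 43.0 to 1410 ± 73.1 CPM (log2 fold change 0.82, SE 0.10, 95% interval 0.61 to 1.04, adjusted p = 1.25e-04). Itgax encodes CD11c, the alpha chain of complement receptor 4, which marks dendritic cells and reactive microglia. It fell from 65.6, 51.5 and 66.0 CPM to 41.8, 36.6 and 43.0 CPM. The mean of Itgax decreased 1.51-fold, from 61.0 ± 8.26 to 40.5 ± 3.40 CPM (log2 fold change -0.59, SE 0.12, 95% interval -0.85 to -0.33, adjusted p = 0.00361). Within a library, the ratio of Itgax to Itgam in FPKM was 0.0799 ± 0.00760 in control and 0.0301 ± 0.00182 in optimized cultures, a 2.65-fold decrease without overlap.

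Of the remaining beta2 partners, Itgal, the CD11a chain of LFA-1, rose 3.10-fold, from 36.8, 37.6 and 35.7 CPM to 117, 107 and 117 CPM (log2 fold change 1.63, SE 0.08, adjusted p = 5.55e-07). Itgal is also abundant in lymphocytes. Among 5 T and NK cell markers, Cd3e, Cd3g and Nkg7 had 0 counts in every library, and the list summed to at most 0.24 CPM. Itgad had 3 to 16 counts and was not tested. The neutrophil markers Ly6g, S100a9, Mpo and Elane were at 0 counts, whereas S100a8 made up the whole list sum of 0.09 to 0.22 CPM in control and 1.42 to 3.07 CPM in optimized libraries.

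Itgam and Itgax lie next to each other on chromosome 7 of GRCm39, at 127661808 to 127717753 and 127728668 to 127749829 on the plus strand, yet changed in opposite directions. The sequences before both genes are therefore shown, at chr7:127661562-127661807 for Itgam and chr7:127728472-127728667 for Itgax, plus strand, from the same RefSeq table. Capitals mark the PU.1-type core, the SMAD-type motif and the GC box given above, on either strand, and no match overlapped another.
Itgam: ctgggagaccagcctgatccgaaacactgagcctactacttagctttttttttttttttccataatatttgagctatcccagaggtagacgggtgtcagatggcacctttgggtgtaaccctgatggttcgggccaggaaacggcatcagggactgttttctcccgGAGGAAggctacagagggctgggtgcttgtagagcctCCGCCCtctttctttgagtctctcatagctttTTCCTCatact
Itgax: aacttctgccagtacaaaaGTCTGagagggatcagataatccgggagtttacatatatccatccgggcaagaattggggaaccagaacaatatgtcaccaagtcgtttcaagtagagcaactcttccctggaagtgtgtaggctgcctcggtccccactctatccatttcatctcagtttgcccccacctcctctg
In its 250-base window Itgam held 2 PU.1-type cores and 1 GC box, and no CAGAC. That of Itgax held 1 CAGAC and 1 AP-1-type motif, the latter beyond the stretch printed, and neither GAGGAA nor GGGCGG. The G and C content was 49.6% for Itgam and 50% for Itgax, both between the lower quartile of 45.2% and the median of 52.4% over all windows.

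Itgb1 encodes the most promiscuous beta subunit, the partner of the collagen, laminin and fibronectin receptors. It was measured at 566, 570 and 550 CPM in control and 514, 467 and 497 CPM in optimized libraries. Every optimized library lay below every control library, but the difference was small, and the means of 562 ± 10.7 and 493 ± 23.6 CPM did not differ at the threshold (log2 fold change -0.19, SE 0.08, 95% interval -0.38 to -0.00133, adjusted p = 0.124). Without optimized replicate 1 the log2 fold change was -0.22 and the adjusted p 0.0461, and with the trend in gene length removed they were -0.20 and 0.0395. Scaling to library size alone gave -0.32 with an adjusted p of 0.0396. In this order, these fits called 5234, 5204 and 4681 genes in all, beside 4360 in the main test.

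Itga6 encodes the alpha subunit of the laminin receptors α6β1 and α6β4. It rose from 324, 313 and 271 CPM to 508, 435 and 451 CPM, without overlap. The mean increased 1.53-fold, from 303 ± 27.7 to 465 ± 38.8 CPM (log2 fold change 0.62, SE 0.10, 95% interval 0.39 to 0.85, adjusted p = 0.00123). With limma on log2(FPKM + 1) it was 0.47 with an adjusted p of 0.0712, past the threshold no longer. The partner Itgb4 had 3 to 22 counts and was not tested. Itga3 and Itga7, the other laminin-binding subunits, were present at 0.73 to 1.80 and 2.62 to 5.40 CPM and did not pass the test (log2 fold changes 0.50 and 0.36).

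Itga4 had the largest decrease of the 10 genes. It encodes the alpha subunit of α4β1, the leukocyte receptor for VCAM-1 and for an alternative segment of fibronectin. The control libraries held 105, 110 and 86.2 CPM and the optimized libraries 34.6, 24.3 and 22.4 CPM, so the conditions were widely separated. The mean fell 3.70-fold, from 100 ± 12.5 to 27.1 ± 6.56 CPM (log2 fold change -1.89, SE 0.17, 95% interval -2.26 to -1.52, adjusted p = 1.80e-05). In FPKM rank Itga4 moved from 5847 to 9867 of the 14618 genes tested. Its closest relative, Itga9, the alpha subunit of the tenascin and osteopontin receptor α9β1, fell from 41.7, 37.2 and 32.1 CPM to between 7.07 and 12 CPM (log2 fold change -1.99, SE 0.18, adjusted p = 2.51e-05). The other partner of α4, Itgb7 of the gut-homing receptor, had 1 to 9 counts and was not tested.

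Itga4 shares 3481 exon bases with Cerkl on the opposite strand in the GENCODE M39 annotation, and no source used here gives the strand setting of the counting, so reads from that stretch cannot be assigned to either gene with certainty. Cerkl itself was counted at 246, 302 and 252 reads in control and 68, 84 and 39 in optimized libraries, beside 2406, 2692 and 2354 and then 731, 570 and 464 for Itga4. Cerkl thus fell in the same direction as Itga4, with mean counts of 267 and 63.7 beside 2484 and 588. The sequence before Itga4 is shown as that of the strongest decrease, at chr2:79085520-79085659 of GRCm39, plus strand, with the gene at 79085660 to 79163467. Capitals mark CAGAC on either strand.
Itga4: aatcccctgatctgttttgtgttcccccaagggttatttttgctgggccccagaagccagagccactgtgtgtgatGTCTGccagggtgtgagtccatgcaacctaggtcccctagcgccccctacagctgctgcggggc
The full 250-base window before the RefSeq start of Itga4 held 1 CAGAC, found in 42.2% of all windows, and 1 GC box that lies beyond the stretch printed. It was 64.0% G or C and held none of the 3 other motifs.

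Itga1, the alpha subunit of a collagen receptor that prefers collagen IV, was close to absent. Its counts were 2, 4 and 4 in the control and 5, 6 and 11 in the optimized libraries, or 0.09 to 0.16 and 0.24 to 0.53 CPM. It did not reach the minimum for the test, and without that minimum its log2 fold change was 1.30 with an adjusted p of 0.357. Furthermore, 2180 of its exon bases are shared with Mocs2 on the opposite strand, which had 695 to 961 counts, so that reads of Mocs2 could have entered the counts of Itga1. Of the other collagen-binding subunits, Itga2 had 1 to 5 and Itga11 0 to 12 counts and neither was tested. Itga10 had 37 to 61 counts, or 0.297 to 0.513 FPKM beside 0.015 to 0.083 FPKM for Itga1, and stood at 1.54 to 2.49 CPM (log2 fold change 0.06, 95% interval -0.53 to 0.66). Over these 4 subunits the summed level was 0.33 to 0.57 FPKM in control cultures and 0.49 to 0.54 FPKM in optimized cultures on collagen IV.

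**Figure D2:**
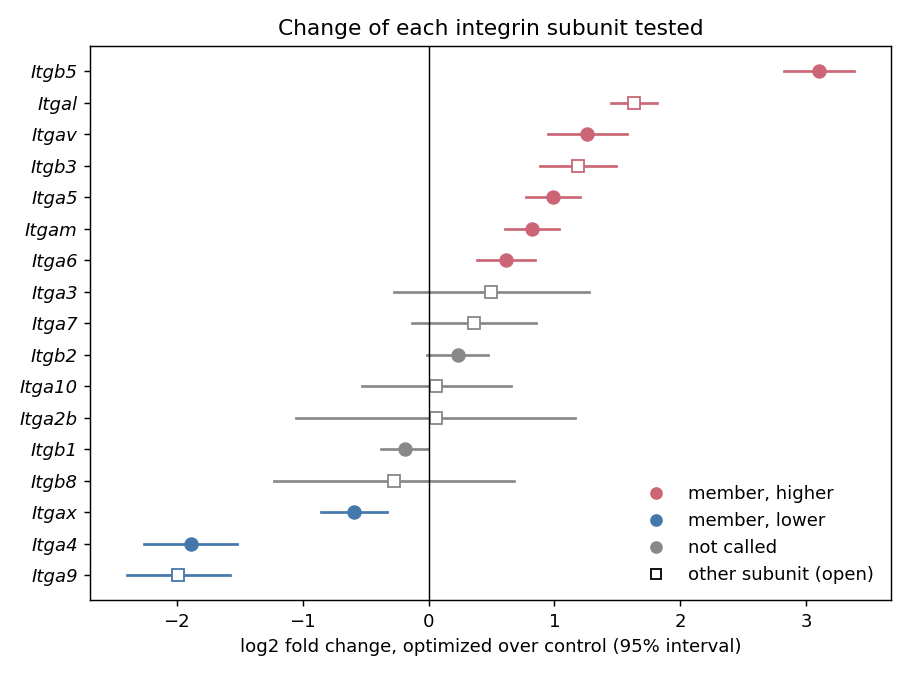
Log2 fold change, optimized over control, with its 95% interval for each of the 17 integrin subunits tested, where filled circles are the genes described here and open squares the other subunits. Red marks subunits higher, blue those lower and grey those not past the threshold. Itgb5 stands apart at 3.10, and Itga4 and Itga9 lie lowest at -1.89 and -1.99.

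Among the 16 other integrin subunits of the mouse, 8 were tested and 3 changed, namely Itgal and Itgb3 upward and Itga9 downward, to be read against 29.8% of all tested genes. The 5 that did not pass were Itga2b, Itga3, Itga7, Itga10 and Itgb8, each under 6 CPM in every library. For Itga2b, the platelet subunit, the log2 fold change was 0.06 (95% interval -1.05 to 1.17). Of the tested subunits above 6 CPM in every library, a bound taken from these same values, all but Itgb1 and Itgb2 changed. The share of all genes above that bound that changed was not computed.

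Levels of different genes were compared in FPKM, which corrects for gene length. In control cultures the order was Itgb2 (367 ± 14.4 FPKM), Itgam (173 ± 10.9), Itgb1 (136 ± 7.49), Itgb5 (83.6 ± 1.49), Itga6 (50.9 ± 6.37), Itga5 (40.8 ± 3.91), Itgav (16.3 ± 1.83), Itgax (13.8 ± 1.67), Itga4 (7.74 ± 1.23) and Itga1 (0.0224 ± 0.00672). Neighbours in this order had separate ranges over the 3 libraries except Itga6 and Itga5, and Itgav and Itgax. In optimized cultures Itgb5 (650 ± 69.2 FPKM) stood first, above Itgb2 (391 ± 30.6), Itgam (278 ± 25.6) and Itgb1 (109 ± 9.64). There followed Itga5 (73.7 ± 7.87), Itga6 (70.9 ± 8.56), Itgav (35.6 ± 8.62), Itgax (8.37 ± 1.01), Itga4 (1.90 ± 0.518) and Itga1 (0.0528 ± 0.0263). Only Itga5 and Itga6 overlapped there. Itgb5 was thus the most abundant integrin transcript per length under optimized conditions, and the 4th under control conditions.

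The make-up of the beta subunits shifted with it. Itgb5 took 13.9 to 14.7% of the summed beta subunit FPKM in control and 54.2 to 57.9% in optimized libraries. The share of Itgb2 went from 60.5–64.1% to 33.4–34.2% and that of Itgb1 from 21.6–24.4% to 8.35–11.1%, although neither gene changed at the threshold. The alpha subunits, grouped by textbook ligand after their values had been seen, moved less. Those pairing with beta2 held 59.8 to 63.3% of the summed alpha FPKM in control and 61.0 to 63.2% in optimized libraries, and those binding laminin 15.0 to 17.5% and 14.3 to 14.9%. The share of the RGD-binding subunits rose from 18.0–18.3% to 21.5–23.3%, and that of α4 and α9 dropped from 3.64–4.52% to 0.563–0.755%.

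**Figure D3:**
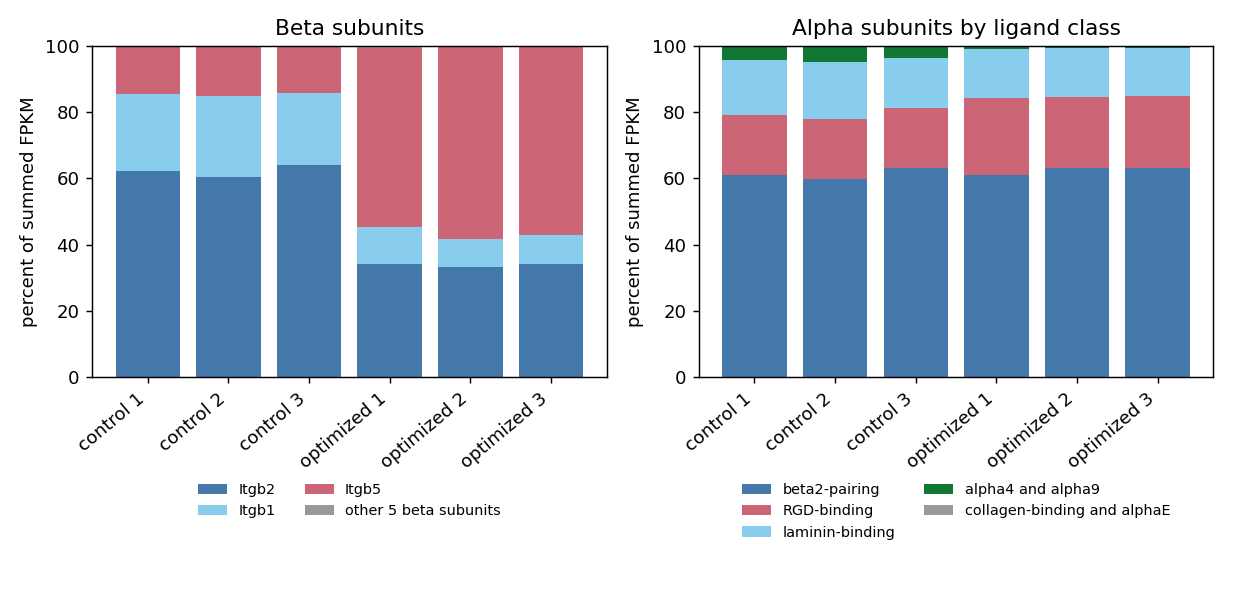
Share of each beta subunit (left) and of each ligand class of alpha subunits (right) in the summed FPKM of its kind, in percent, for each of the 6 libraries. Itgb5 fills 13.9 to 14.7% of the beta bar in control and 54.2 to 57.9% in optimized libraries, while the beta2-pairing class keeps 59.8 to 63.3% of the alpha bar throughout.

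Ratios within a library do not depend on the scaling between libraries, but the trend with gene length was not removed from them. In all, 8 were compared by a two-sided exact permutation test, whose smallest possible p with 3 against 3 libraries is 0.1. Of the 8 ratios, 7 reached that smallest p (0.114 after Benjamini-Hochberg adjustment), so none could pass 0.05. Reaching it means only that the conditions did not overlap, which held for 43.9% of all tested genes taken singly. Every ratio but that of Itgb1 to Itgb2 includes genes already called above, so the ratios describe those changes and are no separate evidence. The ratio of Itgb5 to Itgav went from 4.94, 4.79 and 5.75 to 12.7, 24.1 and 20.8, a 3.60-fold increase of the beta over its only alpha partner. By contrast, Itgb1 relative to the sum of Itga1, Itga4, Itga5, Itga6 and Itgav fell 1.97-fold, from 1.18 ± 0.0660 to 0.599 ± 0.0350. The ratio of Itgb2 to its 4 alpha partners fell 1.48-fold, from 1.90 ± 0.120 to 1.29 ± 0.179. Itga4 relative to Itga5, both fibronectin receptors that pair with β1, fell 7.46-fold, from 0.190 ± 0.0315 to 0.0256 ± 0.00462. Itga6 relative to Itgb1 rose 1.75-fold, and Itgb1 relative to Itgb2 fell 1.34-fold. The ratio of Itga5 to Itgav overlapped between the conditions, at 2.52 ± 0.311 and 2.11 ± 0.272 (exact permutation p = 0.3).

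Matrix proteins that serve as integrin ligands were next examined. Of 20 listed genes, 19 were tested, 9 rose (47.4%) and 0 fell, with a median log2 fold change of 0.75. Over all tested genes 14.7% rose and 15.2% fell, with a median of 0.01, and the lists below are to be read against these shares too. The largest increases were those of Npnt, encoding nephronectin, the ligand of α8β1 (1.24 to 60.0 CPM, log2 fold change 5.61, SE 0.16), and of Tgfbi (43.2 to 366 CPM, 3.08, SE 0.12), the TGF-β-induced matrix protein. Fn1, encoding fibronectin, rose from 536, 433 and 444 CPM to 3799, 2715 and 3483 CPM (2.82, SE 0.15), as its receptor subunits Itga5 and Itgav rose and Itga4 fell. The smallest increases past the threshold were those of Thbs1 (0.71), Lamb2 (0.75) and Lama5 (1.07), encoding thrombospondin and laminin chains. Chosen after their values were seen, Spp1 (osteopontin) rose from 7898 to 26341 CPM (1.74, SE 0.15), and the collagen IV chains Col4a1 and Col4a2 did not pass the test (0.23, SE 0.29, and 0.10, SE 0.30). Vtn, encoding the αvβ5 ligand vitronectin, stood at 0.04 to 0.29 CPM and was not tested.

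Of 10 tested cell surface and complement ligands, 3 rose and 4 fell (median log2 fold change -0.45), beside 14.7% and 15.2% of all tested genes. F11r, the JAM-A ligand of LFA-1, rose from 23.9 to 169 CPM (2.82, SE 0.12), Jam2 from 13.5 to 39.9 CPM (1.57, SE 0.11) and Adam15, a disintegrin protease, from 359 to 571 CPM (0.67, SE 0.09). C3, whose fragment iC3b is bound by the Itgam and Itgax dimers, fell from 1027, 995 and 1121 CPM to 375, 199 and 222 CPM (-1.98, SE 0.21). Vcam1, a ligand of α4β1, fell from 13.8 to 5.77 CPM (-1.26, SE 0.16), as Itga4 did. By contrast, Fn1, encoding the fibronectin that α4β1 also binds, rose (2.82, SE 0.15). Cd47, the integrin-associated protein, decreased (-1.16, SE 0.09). Icam1, a ligand of the Itgal and Itgam dimers chosen after its values were seen, fell from 179 to 91.2 CPM (-0.98, SE 0.08), whereas Itgal and Itgam rose.

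Inside the cell, talins, kindlins and their helpers switch integrins on. Of 25 activators and adaptors, 10 fell and 4 rose (median log2 fold change -0.13). The lowest were Tln2 (103 to 38.0 CPM, -1.44, SE 0.08) and Vcl (39.6 to 15.7 CPM, -1.34, SE 0.11), encoding a talin and vinculin, and Apbb1ip (-0.80, SE 0.08), encoding the Rap1 effector RIAM that brings talin to integrins. The highest were the parvins Parvg (1.10, SE 0.10) and Parvb (0.60, SE 0.10) and the tensin Tns3 (0.56, SE 0.12). Without optimized replicate 3 only 9 of the 25 passed, and over all genes 3489 in place of 4360. Fermt3, encoding the leukocyte kindlin that binds beta tails and chosen after its values were seen, fell from 447 to 274 CPM (-0.71, SE 0.09). Of 10 integrin-linked kinases, 5 fell and 1 rose (median -0.24). Src (34.0 to 10.8 CPM, -1.66, SE 0.10), Pak1 (-1.01, SE 0.10) and Syk (300 to 170 CPM, -0.82, SE 0.08) were lowest, and Fgr was the kinase that rose (2.05 to 5.60 CPM, 1.45, SE 0.19).

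Latent TGF-β is a ligand of αv integrins, and the optimized medium supplied TGF-β itself. Of 8 tested genes for its handling, 3 rose and 2 fell (median log2 fold change 0.31). Nrros, which tethers latent TGF-β on microglia, fell from 264, 266 and 283 CPM to 84.6, 102 and 99.9 CPM (-1.51, SE 0.096), and Tgfb1 fell from 352 to 234 CPM (-0.59, SE 0.11). The latent TGF-β binding protein gene Ltbp3 rose from 31.9 to 55.1 CPM (0.79, SE 0.095). Ltbp2 and Ltbp4 also passed, at no more than 5.56 and 2.66 CPM in any library. Only 3 genes of the list passed when control replicate 1, 2 or 3 or optimized replicate 3 was left out. Over all genes, calls in those fits were fewer too, at 3371, 3249, 3340 and 3489 beside 4360 in the main test. Of 7 tetraspanins, membrane organisers that associate with integrins, 4 rose and 1 fell (median 0.70). Cd9 rose from 421 to 1179 CPM (1.49, SE 0.13), Cd81 from 219 to 510 CPM (1.22, SE 0.12) and Cd37 from 152 to 265 CPM (0.80, SE 0.12), and Cd82 fell (-0.64, SE 0.12). The shares of these 6 lists stand beside 29.8% of all genes, with 14.7% higher and 15.2% lower. No test of a list as a whole was made.

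**Figure D4:**
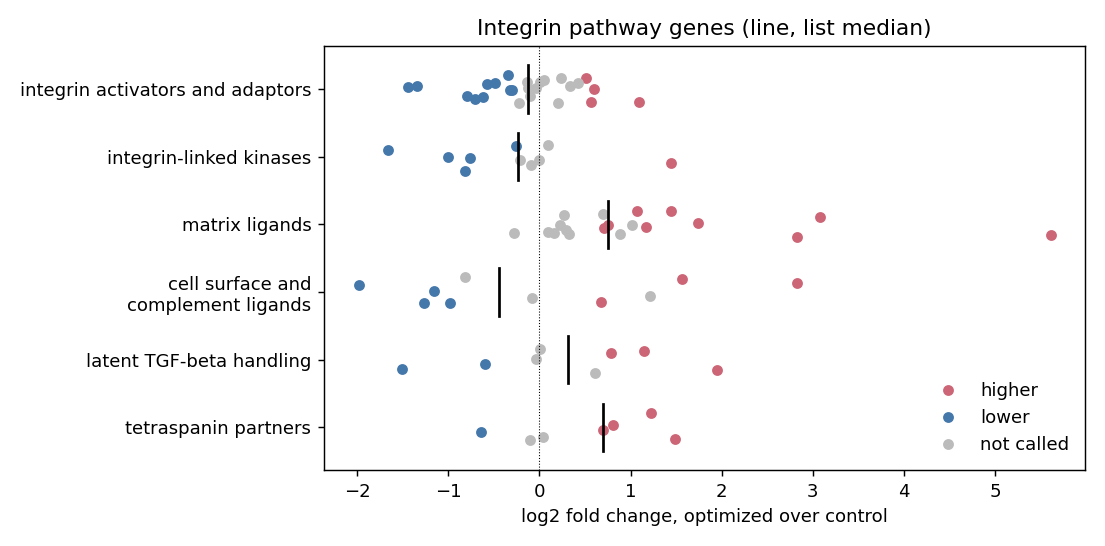
Log2 fold change, optimized over control, of each tested gene in 6 lists of integrin partners, with red for genes higher, blue for those lower, grey for those not past the threshold and a black line at the list median. Matrix ligands lie at a median of 0.75 with Npnt at 5.61, and activators and adaptors at -0.13 with Tln2 lowest at -1.44.

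Markers of other cell types were summed in each library, since most of these integrins also occur outside microglia. The 6 fibroblast markers summed to 34.5 to 48.8 CPM in control and 31.0 to 151 CPM in optimized libraries, highest in optimized replicate 3, and 0 of them passed the test. Among the optimized libraries, replicate 3 was highest in CPM for Itgb2 and Itgax of the 9 tested integrin genes. In FPKM it was also highest for Itgb5, at 571, 679 and 700 FPKM in optimized replicates 1, 2 and 3. Without replicate 3, 7 of the 9 passed, beside 3489 of the 15039 genes tested in that fit. The 5 endothelial markers summed to 80.7 to 96.8 and 273 to 351 CPM, nearly all from Flt1, with Cldn5 at no more than 0.09 CPM. The 5 pericyte markers summed to at most 3.98 CPM, and the 5 neuronal markers to 1.55 to 2.01 CPM in control and 2.84 to 3.72 CPM in optimized libraries, where Nefl rose 4.92-fold (adjusted p = 0.00189). The 5 astrocyte markers summed to 27.1 to 30.0 CPM in control and 18.3 to 20.8 CPM in optimized libraries, and of these Aldh1l1 fell (log2 fold change -1.83, adjusted p = 3.76e-06). The 5 markers of the oligodendrocyte lineage summed to 125 to 140 and 156 to 190 CPM. Most of this came from Mbp, which rose (log2 fold change 0.34, adjusted p = 0.0233 in the quasi-likelihood test). Flt1, S100a8, Nefl, Aldh1l1, Mbp and the neuronal, astrocyte and oligodendrocyte totals therefore moved with the condition. Their part in the results, and that of the fibroblast markers, was not tested.

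Genes whose levels followed the extremes most closely over the 6 libraries were listed as a description. For Itgb5 these were Psat1, Il4ra and Havcr2 (Pearson correlation of log2 CPM at least 0.9998 among 9808 genes), with log2 fold changes of 2.22, 0.95 and 2.27. For Itga4 they were Prkx, Abca9 and Hpgds (at least 0.9977), with log2 fold changes of -0.61, -1.37 and -0.55. The 6 points share their libraries and fall into 2 conditions, so any gene whose change is large beside its spread within a condition correlates highly.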

How the data were processed

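Microglia from 3 control and 3 optimized cultures were profiled by paired-end RNA sequencing. HISAT2 alignment to mm39 and featureCounts quantification were run by the authors on Galaxy, with versions and strand setting not given in the sources used here. The deposited count table lists whole reads for each of 41079 genes. The deposited FPKM table follows from it by 1 factor per gene and 1 per library. Sample groups came from the labels.

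Counts were tested with edgeR 4.0.16 (quasi-likelihood, TMM scaling, filterByExpr, no block, R 4.3.3) over all genes, with Benjamini-Hochberg adjustment over the 14618 genes tested and a threshold of 0.05. Each SE was derived from the fold change and the F statistic. FPKM was used to compare genes and for ratios. The fit was tested on simulated data. Replicate libraries differed by more than sampling noise. With 3 libraries per group, the test measures the spread between these cultures. Sums, ranks and permutation tests were computed with Python 3.11.15 and SciPy 1.17.1. Positions are from GENCODE M39, and RefSeq promoter windows (8 of the 10 genes matched) were placed by exact match in GRCm39.

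Alternatives were RLE factors, library size alone, DESeq2 1.42.0, other count filters, a replicate block, leaving out each library, limma 3.58.1 on log2(FPKM + 1) or log2(FPKM + 0.1), the former also with a minimum mean FPKM of 1, and a threshold of 0.01. Removing a spline on gene length, read from those FPKM factors, from each library was added after the data were seen. The 10 genes and all lists were chosen with earlier results of these data known, and the ligand classes of alpha subunits after the values were seen. The kinase and microglia lists each lack 1 gene that is not reported here and is left out of their counts and sums. Named were all 10 genes, every other tested subunit, the 3 highest and 3 lowest changed genes of each list, and the 3 genes most correlated with the extremes among those with a mean of at least 5 CPM and no predicted-gene symbol.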

Additional observations from a re-analysis of the deposited data

How the results depend on the processing

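The 7 integrin calls numbered 6 to 9 over the alternatives, and no fold change of the 9 tested genes changed sign. Itgb5 ranged from 2.94 to 3.21 on the log2 scale, Itga4 from -2.10 to -1.60, Itgav from 1.06 to 1.37, Itga5 from 0.84 to 1.05, Itgam from 0.68 to 0.86 and Itgax from -0.72 to -0.53, each past the threshold throughout. Leaving out 1 library gave 7 to 9 integrin calls and 3249 to 5234 calls over all genes, beside 4360 in the main test. The 9 and the 5234 were reached without optimized replicate 1, where Itgb1 (-0.22) and Itgb2 (0.31) passed as well. Leaving out 1 library also gave 9 to 15 calls among activators and adaptors and 3 to 5 among the genes for latent TGF-β. Itgb1 and Itgb2 also passed with the trend in gene length removed (-0.20 and 0.24, 9 integrin calls), where 5204 of all genes passed. Itgb1 passed with library size alone (-0.32) and with limma at a mean FPKM of at least 1 (-0.33), and Itga6 no longer passed with limma on log2(FPKM + 1) (0.47) or log2(FPKM + 0.1) (0.48). Activators and adaptors had 9 calls with limma on log2(FPKM + 0.1) and 9 at the threshold of 0.01, and latent TGF-β had 3 calls with each of the 3 limma fits and at 0.01. Over all genes, 2873 passed at 0.01, with 1409 higher and 1464 lower. The limma fits called 1350 (FPKM + 1), 1272 (FPKM + 0.1) and 1175 (mean FPKM of at least 1) genes higher, and 2849, 2288 and 2907 lower. They shifted the median log2 fold change of all genes by -0.095, -0.136 and -0.142, beside -0.129 with library size alone. For the ratio of Itgb1 to its alpha partners, the log2 difference of -0.98 became -0.87 with raw counts in place of FPKM, which weights the longer genes more. The cause of the other differences was not tested.

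With the replicate number as a block, 7 integrin genes passed, as without it, and 4924 of all genes. The replicate block changed no integrin call. The labels state no pairing, so the numbers were not taken as one. Same-numbered libraries deviated together with correlations of 0.35, -0.02 and 0.21, and libraries did not all correlate best with their own number. These deviations include the trend with gene length, so the correlations cannot decide whether a number marks a shared preparation. Itga1, at 2 to 11 counts, was too shallow to enter the test.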
